A study of Rattus norvegicus with 6 samples.

Results

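Introns that are removed in one transcript of a gene and kept inside a single exon of another were described in purified rat beta cells. An intron was a member when, within one gene model of the deposited transcript assembly, an intron of one transcript lay wholly inside one exon of another transcript. Its percent retained was the summed RPKM (reads per kilobase of transcript, relative to library depth) of the transcripts whose exon spans it, divided by that sum plus the RPKM of the transcripts that splice exactly that intron. Of 218829 introns in the assembly, 2931 lay inside an exon in this way, and 2007 of these, in 1278 genes, belonged to genes with at least 1 RPKM in all 6 libraries. The rule used transcript structures and gene level only, not retention values or their difference between groups. By its name the assembly covers control and Nova1 knockdown, so whether a new form is listed can depend on its level in these cells. For 924 of the 1680 introns tested below, all spanning transcripts were newly assembled. At the edge of that minimum, the lowest library value of Lmbr1l, just inside, was 1.003 RPKM.

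Retention was tested for the 1680 introns, in 1179 genes, whose spanning and splicing transcripts together reached 1 RPKM in every library. The 327 other members were too low for this and are described only through the alternative without that minimum. Members are not independent of each other. Of the 1179 genes, 868 held a single tested intron and Rrbp1 held 16. The 1680 tested introns came from 1589 distinct sets of transcripts.

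Intron retention is a form of alternative splicing in which an intron stays in the polyadenylated RNA. In an internal exon that lies in the coding sequence, a kept intron usually brings a premature stop codon, and such RNA is often held in the nucleus or degraded by nonsense-mediated decay. Genes for SR proteins (splicing activators rich in arginine and serine) and hnRNPs (RNA-binding proteins that often act as splicing repressors) are known for introns of this kind, through which many of them limit their own amount. In a first or last exon the intron can lie in untranslated sequence, where keeping or removing it changes the length of the end of the RNA and need not touch the protein.

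The cells were primary beta cells of the rat, which secrete insulin in the pancreatic islet, and were purified by fluorescence-activated sorting. Control cells received the Allstars Negative Control siRNA and knockdown cells an siRNA against Nova1, a neuronal RNA-binding protein that regulates alternative splicing and is also made in beta cells. Both siRNAs were used at 30 nM with Lipofectamine RNAiMAX for 16 h, followed by 48 h of recovery, and no group was left without transfection among these libraries. Each of 3 batches gave 1 control and 1 knockdown library of polyadenylated RNA. Whether the batches stem from separate animals is not in the labels, so a p-value reflects the variation among these 3 batches, which may be technical. The labels name 1 siRNA target and give no strain, sex or age.

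Libraries held between 95394043 and 292432076 assigned reads, and the control was the deeper library in every batch. Nova1 stood at 20.6, 21.5 and 17.4 CPM (reads relative to library depth, scaled between libraries) in control libraries 1, 2 and 3 and at 7.76, 10.2 and 9.43 CPM in the knockdown libraries, so the groups did not overlap on this scale. In RPKM it stood at 5.06, 2.83 and 2.03 in controls and 1.38, 2.38 and 1.81 in knockdown cells, where control 3 lay below knockdown 2. Its log2 fold change was -1.12 ± 0.11 (SE, n = 3 batches; adjusted p = 0.038, limma voom with batch as a block), but the adjusted p was 1.00 without the block and 0.14, 0.12 and 0.071 when batch 1, 2 or 3 was left out, with log2 fold changes of -0.98, -1.14 and -1.25. All 8 beta cell markers examined were above 0.1 RPKM, with a summed level of 219521 to 484431 RPKM. That sum was lowest in both batch 2 libraries (294925 RPKM in the control and 219521 RPKM in the knockdown), where the sum of 4 alpha cell markers was highest (12657 and 14269 RPKM, against 4736 to 9224 RPKM elsewhere). Most of the beta cell sum was Ins1 and Ins2. Ucn3 and Slc2a2 were also lowest in both batch 2 libraries, but Iapp, Nkx6-1, Pdx1 and Mafa were not. Iapp was at 8220.5 RPKM in control 2 and 8415 RPKM in knockdown 2, against 7309 to 8310 RPKM elsewhere. In bulk RNA, fewer cells of a type and less RNA per cell cannot be told apart. Some marker sums also differed between knockdown and control in the same direction in every batch. In batches 1, 2 and 3 those of stellate cells and fibroblasts were 16.6, 21.0 and 22.2 RPKM in knockdown cells against 6.65, 8.27 and 14.9 RPKM in controls, and those of alpha cells 6474, 14269 and 9224 RPKM against 4736, 12657 and 7092 RPKM. Duct markers were at 200.3, 131 and 177 RPKM against 155, 115 and 134 RPKM. Most of the duct sum was Krt7, while Krt19 was lower in every batch, at 17.3, 6.51 and 9.04 RPKM against 19.1, 7.93 and 9.16 RPKM. Acinar markers were lower, at 295, 225 and 97.4 RPKM against 389, 269 and 133 RPKM. The part of these marker differences in the results was not tested.

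Retention covered the whole range from 0 to 100%. The median intron was retained at 52.3, 57.2 and 52.3% in control libraries 1, 2 and 3 and at 53.6, 56.6 and 52.1% in the knockdown libraries. In 889 of 1680 introns (52.9%) the mean over controls was above 50%. In these the spanning transcripts outweighed, on average, those that splice exactly that intron. Transcripts that remove the sequence with another border are not counted in this ratio. Over all tested introns, the spanning transcripts held a median of 38.8% of the RPKM of the gene in controls. Stable extremes were the minority: 90 introns stayed under 10% in all 6 libraries and 143 stayed over 90%, while 565 stayed between 10 and 90% in all 6. The spread among the 3 controls had a median SD of 7.64 percentage points (interquartile range 2.97 to 14.9). A spanning transcript set was listed at 0 in at least 1 library for 78 introns, and retention was listed at 100% in at least 1 library for 281. With assembled transcripts that share most of their sequence, a value listed at 0 can be a failed estimate.

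Retained introns were short. The tested introns had a median length of 205.5 nt (interquartile range 88 to 583.75, range 5 to 9850) against 1427 nt (466 to 3762.5) for the 128827 other introns of the genes over the minimum. The rule itself asks the intron to fit inside an exon, so this difference is a description. A length divisible by 3, which keeps the reading frame when the sequence is coding and holds no stop codon, was found in 41.5% of the tested introns and in 33.4% of the others. Lengths under 50 nt made up 8.81% of the tested introns (148) and 0.560% of the others. These very short gaps, 17 of them of 5 nt, lie mostly below the usual length of mammalian introns, and the files do not show whether they are spliced introns. Another 22 tested introns (1.31%) had an exon under 10 nt on one side in every transcript that splices them. Across introns, retention had almost no rank relation to length (Spearman's rho 0.018, n = 1680 introns) or to gene level (0.050), as a description over introns that share libraries.

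Retention differed with the place of the exon that holds the intron. Introns inside an internal exon (622) had a median control retention of 30.1% (interquartile range 10.6 to 73.6). Introns inside a first exon (274) had 57.3% (26.6 to 80.0), and introns inside a last exon (635) had 64.2% (35.6 to 86.1). The 149 introns whose spanning exons differed in place among transcripts had 76.6% (50.8 to 91.1). Internal exons gave 2 groups, with many introns near 0 and a smaller group near 100%, while last exons were weighted towards high values. The spanning transcripts were newly assembled for 924 introns (median 40.3%), matched the reference annotation for 325 (58.5%), and were of both kinds for 431 (77.1%).

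**Figure D1:**
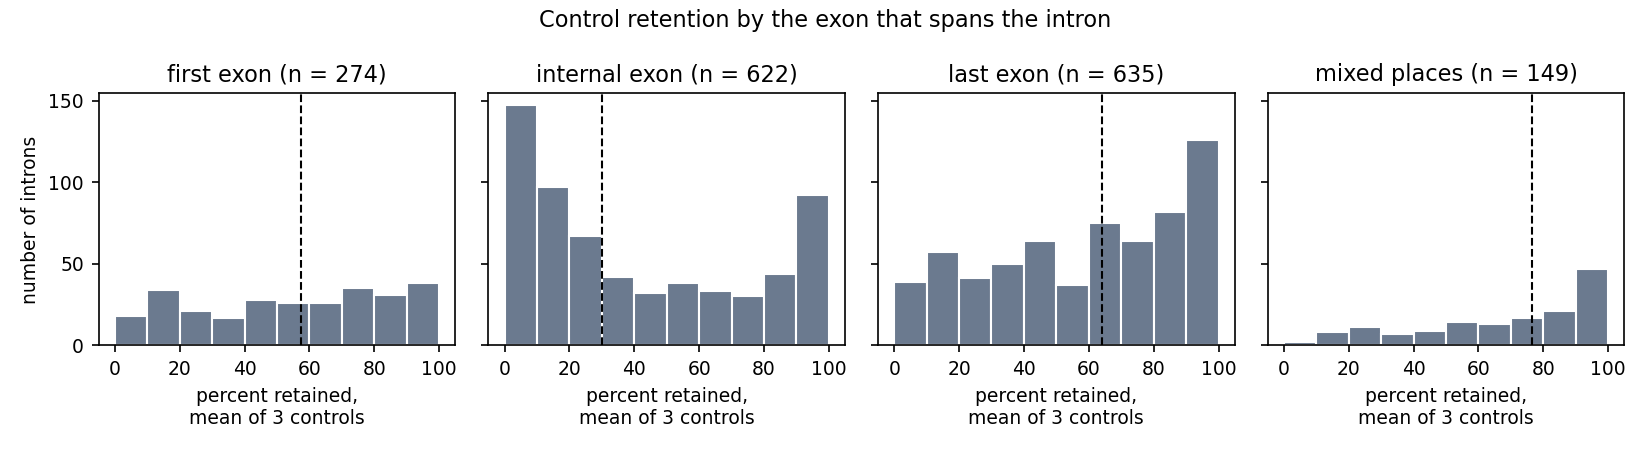
Number of tested introns (vertical axis) by percent retained, mean of 3 control libraries (horizontal axis), for introns inside a first, internal or last exon or inside exons of differing place. Dashed lines mark the medians (57.3, 30.1, 64.2 and 76.6%), and internal exons have their highest bar under 10%.

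Among introns inside internal exons, retention also differed with whether the length was divisible by 3. Of introns of at least 50 nt inside an internal exon, the 232 with a length divisible by 3 had a median control retention of 40.9%, against 18.2% for the 281 others. Library by library, the first kind had medians of 38.8, 49.5 and 38.1% in controls and 47.1, 53.6 and 37.3% in knockdown cells. The second kind had 10.3, 27.0 and 11.3% in controls and 12.8, 27.2 and 12.8% in knockdown cells. The introns with a length divisible by 3 were thus the more retained in 6 of 6 libraries. Whether they lie in coding sequence or hold a stop codon was not examined. In first exons the corresponding medians were 55.5% (90 introns) and 57.6% (175), and in last exons 67.7% (218) and 64.2% (399), with no such gap. Introns are not independent replicates, so no test is given for these differences.

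**Figure D2:**
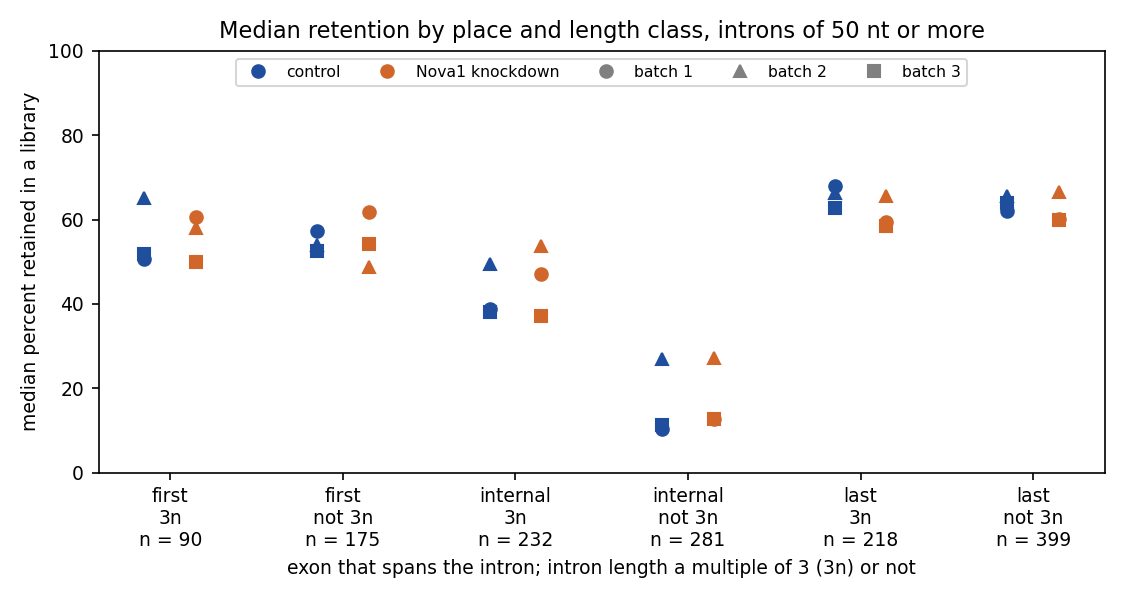
Median percent retained per library (vertical axis) for introns of at least 50 nt, by place of the spanning exon and by whether the length is divisible by 3. The gap between the length classes is seen in internal exons (40.9 against 18.2% over controls) and not in first or last exons.

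The introns with the most abundant spanning transcripts, among those at an intermediate level, differed in how steady they were. They are the 10 with the highest spanning RPKM among those retained at 10 to 90% in controls, 1 per gene. Scg2 encodes secretogranin II, a granule protein, and the 120 nt intron in its last exon (chr9:84992932-84993051, minus strand, Rnor_5.0) was retained at 86.4, 87.1 and 85.7% in controls and 86.6, 65.8 and 85.8% in knockdown cells. Only the knockdown library of batch 2 lay apart from the others. App encodes the amyloid precursor protein, and the 88 nt intron in an internal exon of it (chr11:28151654-28151741) was retained at 58.2, 64.8 and 66.4% in controls and 59.7, 65.9 and 61.7% in knockdown cells. The groups overlapped fully (adjusted p = 0.98, limma).

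Xbp1 encodes the transcription factor of the unfolded protein response, and an 82 nt intron in its first exon was retained at 76.9, 70.2 and 82.4% in controls and 79.8, 65.1 and 78.7% in knockdown cells. This is not the short intron for which Xbp1 is best known, which is removed in the cytoplasm and lies further downstream. Calr, encoding the chaperone calreticulin, held a 75 nt intron in its last exon at 88.9 ± 3.83% in controls (SD, n = 3) and 87.7 ± 6.46% in knockdown cells. Spint2, a protease inhibitor gene, held a 50 nt intron in its first exon at 58.7 ± 4.99% and 56.5 ± 7.05%. Slc3a2, the heavy chain of amino acid transporters, varied more between batches, with 53.8, 28.6 and 61.3% in controls and 32.7, 21.3 and 60.8% in knockdown cells. The batch 2 values were the lowest of each group. Igfbp7 and Mrfap1 were retained at 83.7 ± 11% and 79.7 ± 6.86% in controls. The remaining pair, Tm9sf3 (5 nt) and Pdia3 (15 nt), are among the very short gaps.

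The few tested introns of beta cell genes were mostly at high retention. Of 44 beta cell identity and hormone processing genes over the minimum, 7 (15.9%) held a tested intron, against 1179 of all 10936 genes over the minimum (10.8%). The 10 introns of these 7 genes had a median control retention of 97.7%, and 5 of the 7 genes are described here. Some of the 10 share a gene and its spanning transcripts. All other introns of these genes are outside the rule and are not described by this median. Pdx1, the homeodomain factor that drives insulin transcription, was an exception, with a 1604 nt intron in its last exon retained at 41.8, 44.7 and 47.2% in controls and 43.6, 46.0 and 43.5% in knockdown cells. All 6 values lay within the spread of the controls. Chga, encoding chromogranin A, held a 51 nt intron at 6.64, 12 and 10.7% in controls and 6.28, 13.5 and 10.5% in knockdown cells, so that the spliced form dominated. Slc30a8, the zinc transporter of insulin granules, held a 78 nt intron in its first exon at 96.2 ± 2.95% and 94.8 ± 3.34%, and an intron of Nkx2-2, an islet transcription factor, stayed at 99% or above in all 6 libraries.

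Of 55 exocytosis genes, 3 (5.45%) held a tested intron. Syt7, a calcium sensor of secretion, kept a 1364 nt stretch of its last exon at 100% in 5 of 6 libraries and 99.2% in the knockdown library of batch 2. Of 44 ion channel genes, 8 (18.2%) held one. Scn3b, an auxiliary subunit of sodium channels, held a 333 nt intron in its last exon at 13.9, 17.3 and 16.7% in controls and 11.8, 13.7 and 12.4% in knockdown cells. The highest knockdown value lay just under the lowest control. A second Scn3b intron of 310 nt shares its downstream border. It was at 32.2, 71.1 and 39.9% in controls and 45.8, 65.4 and 54.4% in knockdown cells, which overlap, with a higher knockdown mean. Of 16 acinar cell genes over the minimum, 1 held a tested intron. The lists of immune, stellate and endothelial genes held none, with only 4, 4 and 1 genes over the minimum.

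Genes for RNA-processing proteins were read out by list. A tested intron was found in 12 of 36 genes for SR proteins and their kinases (33.3%), in 14 of 65 genes for hnRNPs and other splicing regulators (21.5%), in 11 of 85 genes of the spliceosome core (12.9%), in 6 of 34 genes of mRNA export and nuclear RNA decay (17.6%) and in 2 of 24 genes of nonsense-mediated decay (8.33%). The share among all genes over the minimum was 10.8%, and no test of these shares is given. Median control retention was 39.1% for the 26 introns of the SR list, 38.0% for the 26 of the hnRNP list and 17.3% for the 9 of the export list, beside 54.4% over all tested introns.

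Many of these introns were kept most in both libraries of batch 2. Srsf2 encodes an SR protein, and the 1045 nt intron inside an internal exon of it (chr10:105452397-105453441, minus strand) was retained at 12.3, 44.6 and 7.70% in controls 1, 2 and 3 and 11.6, 42.9 and 12.6% in the knockdown libraries. Both batch 2 libraries stood far above the other 4, while control and knockdown of a batch lay close together. A 502 nt intron in the last exon of Srsf2 was at 87.7, 55.4 and 92.3% in controls and 88.4, 57.1 and 87.4% in knockdown cells. Spanning and splicing RPKM were swapped between these introns, so its retention was lowest in batch 2. The batch 2 values of Srsf2 thus reflect a different mix of forms, and not more retention of both introns. Nxf1 encodes the main mRNA export receptor, which is known for a retained intron of its own, and its 1762 nt intron was at 5.33, 43.6 and 2.96% in controls and 8.81, 43.9 and 6.02% in knockdown cells. Sf3b1, a subunit of the U2 particle, held an 1805 nt intron at 1.35, 20.6 and 1.33% in controls and 2.15, 26.4 and 1.48% in knockdown cells.

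The same order of batches was seen in Hnrph1, an hnRNP H gene, at 5.04, 21.4 and 2.56% in controls and 4.92, 27.2 and 4.70% in knockdown cells. Its 3 tested introns lie in one exon and share these values, because the same transcripts span or splice them. Srsf7 (1200 nt intron) had 9.04, 26.9 and 2.74% in controls and 5.03, 34.7 and 7.79% in knockdown cells, and Hnrpdl (1117 nt, last exon) had 14.5, 73.8 and 12.2% and 12.6, 69.9 and 11.9%. For each of the introns given, the lower of the batch 2 values exceeded the highest of the other 4. Another Srsf7 intron, of 138 nt inside an internal exon, was lowest in batch 2. It was at 71.0, 66.2 and 86.9% in controls and 83.0, 67.0 and 73.3% in knockdown cells. The remaining tested introns of Srsf7 were highest in batch 2. Mat2a, encoding the enzyme that makes S-adenosylmethionine and known for a detained intron, had 8.45, 17.3 and 7.30% in controls and 7.87, 22.0 and 8.05% in knockdown cells.

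Other introns of this class did not follow batch 2. Hnrnpl, the gene of hnRNP L, kept a 60 nt intron at 21.9, 20.1 and 23.1% in controls and 24.4, 23.8 and 26.5% in knockdown cells, and the groups did not overlap although the shift was small (adjusted p = 0.88, limma). Rbm39, an SR-like splicing factor, held a 97 nt intron at 16.9, 17.3 and 18.5% in controls and 19.9, 29.3 and 15.8% in knockdown cells, which overlap. Son, a scaffold of nuclear speckles, kept a 60 nt stretch at 91.8 ± 2.79% and 90.3 ± 7.02%.

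The batch pattern was counted over all introns. Both libraries of batch 2 lay above the 4 others in 315 of 1680 introns (18.8%), against 89 (5.30%) for batch 1 and 88 (5.24%) for batch 3. Both lay below the others in 126, 123 and 125 introns for batches 2, 1 and 3, so batch 2 stood apart in 1 direction. For introns of at least 50 nt the count above was 148 of 513 (28.8%) inside internal exons, 108 of 617 (17.5%) inside last exons and 35 of 265 (13.2%) inside first exons. In 24 RNA-processing genes with an internal-exon intron of at least 50 nt, taking the most abundant such intron of each, batch 2 was highest in 14, batch 1 in 1 and batch 3 in 1. The batches also differed in depth and in islet cell markers. Batch 2 had the fewest reads of each group (122637234 and 95394043). It also had the lowest summed beta cell markers (mostly Ins1 and Ins2) and the highest summed alpha cell markers. The part of these depth and marker differences in its higher retention was not tested.

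**Figure D3:**
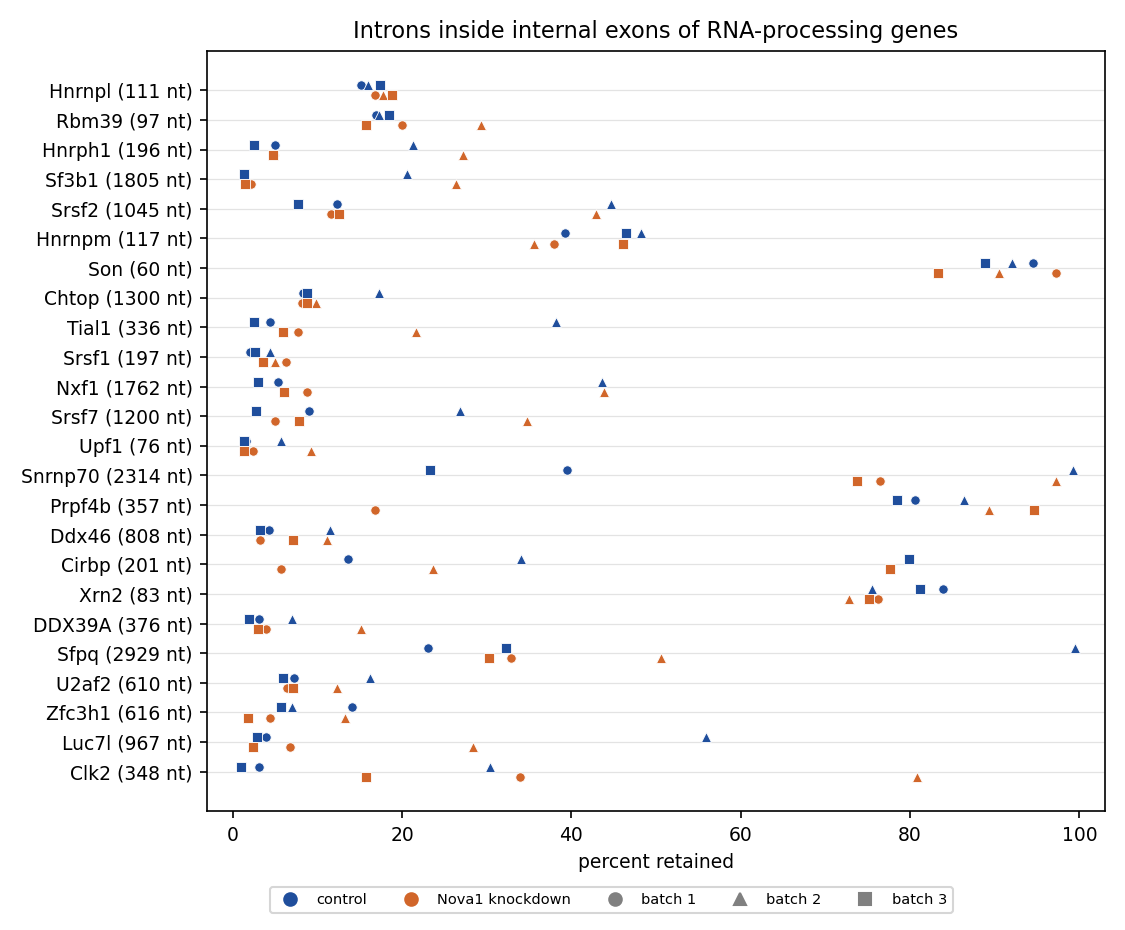
Percent retained (horizontal axis) in each of the 6 libraries for 1 internal-exon intron of at least 50 nt in each of 24 RNA-processing genes. Batch 2 points, control and knockdown, lie to the right of the other 4 in 14 genes, as in Srsf2, Nxf1 and Sf3b1.

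The knockdown was then compared with the control. No intron passed the adjusted threshold of 0.05 (0 of 1680, 0.0%; limma on the log2 ratio of spanning to splicing RPKM, batch as a block). At an unadjusted p under 0.05 there were 89 introns (5.3%), 47 higher (2.8%) and 42 lower (2.5%) in the knockdown. Without the block 2 introns passed (0.119%), in Itga3 and Pnrc2, and both were lower. Over all tested introns the median change was 0.09 percentage points (interquartile range -4.81 to 4.75), with 861 introns higher, 802 lower and 17 equal. The median retention of a library differed between knockdown and control by 1.28, -0.68 and -0.21 points in batches 1, 2 and 3. An exact two-sided permutation test over the 3 pairs gave p = 1.0, where 0.25 is the smallest value that 3 pairs allow.

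Knockdown and control of a batch were about as close as libraries of the same treatment. The median absolute difference per intron between knockdown and control of one batch was 5.69, 6.2 and 5.39 points. Between controls of different batches it was 8.25 points (1 and 2), 5.47 (1 and 3) and 8.46 (2 and 3), and between knockdown libraries 8.43, 5.23 and 8.0 points for the same pairs. The larger values were all those that set batch 2 against another batch. All 3 knockdown values lay outside the range of the controls on one side in 133 introns (7.92%), of which 69 (4.11%) were higher and 64 (3.81%) lower. The mean difference exceeded 10 points in 455 introns, and in 86 of these the groups did not overlap.

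The largest difference was in Itga3, the gene of integrin alpha 3, a laminin receptor subunit. A 90 nt intron in its first exon (chr10:82698239-82698328, minus strand, Rnor_5.0) was listed as retained at 95.9, 94.3 and 97.1% in controls and 5.60, 4.08 and 5.07% in knockdown cells. The groups lay at opposite ends of the range (log2 ratio change -8.61 ± 0.35 (SE, n = 3 batches), adjusted p = 0.063, limma). The spanning transcript had 31.0 RPKM in controls and 1.40 RPKM in knockdown cells and the splicing transcript 1.52 and 28.1 RPKM (means of 3), at a gene log2 fold change of -0.08 (adjusted p = 0.53). These transcripts do not differ by this intron alone. Another intron is present only in the spanning transcript and 2 only in the splicing one, their starts differ, and the exon before the 90 nt intron is 3 nt long. The value compares these whole transcripts, and not the removal of 90 nt alone. A second Itga3 intron of 98 nt, which shares its downstream border, was at 98.1, 99.5 and 96.4% in controls and 65.2, 52.7 and 67.5% in knockdown cells (adjusted p = 0.85).

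Pnrc2 encodes a cofactor of decapping in nonsense-mediated decay. The 2533 nt intron in its last exon (chr5:157983961-157986493, minus strand) was retained at 35.1, 61.0 and 58.9% in controls and 0.32, 0.30 and 0.68% in knockdown cells. All 3 knockdown values were near 0 (adjusted p = 0.34, limma). The spanning transcript had 4.60, 9.18 and 7.14 RPKM in controls and 0.042, 0.052 and 0.066 RPKM in knockdown cells, and the splicing transcript 8.52, 5.87 and 4.99 RPKM against 12.9, 17.4 and 9.67 RPKM. Each of the 2 transcripts also has 1 intron that the other lacks.

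Hipk2 encodes a nuclear kinase that acts on p53. The 1288 nt intron in its last exon (chr4:66255807-66257094, minus strand), an exon of 10141 nt, was retained at 19.0, 48.6 and 48.4% in controls and 0.92, 0.90 and 1.27% in knockdown cells (adjusted p = 0.66, limma). Here the main spanning and splicing transcripts have the same introns except this one. Counting only transcripts that differ in this way gave 18.8, 48.3 and 48.3% against 0.61, 0.29 and 0.40%, so the difference was as large. Rc3h2, an RNA-binding ubiquitin ligase gene, held a 1948 nt intron in its last exon at 100, 35.9 and 78.8% in controls and 0.20, 10.6 and 0.60% in knockdown cells, also between transcripts whose introns differ by this one alone (adjusted p = 0.85). The spread of the controls was wide.

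Other introns lower in the knockdown were in Gcc1, Mycl1, Prpf18, Cfap97, P2rx2, Rrp1b and Cidec, with adjusted p-values from 0.65 to 0.85. Rrp1b, a nucleolar protein gene, had a gap of 27 nt listed as kept at 98.2, 100 and 95.9% in controls and 58.0, 70.9 and 55.3% in knockdown cells, but its length is among the very short ones. Cidec rested on batch 3, where the control was at 86.1% against 17.1 and 6.03% in the others. Cfap97 rested largely on batch 2, where the knockdown was at 5.11% against 64.4 and 68.1% in the others.

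On the higher side the largest mean difference was in Rrbp1, the ribosome receptor of the endoplasmic reticulum. A 363 nt stretch (chr3:144532511-144532873, minus strand) was retained at 64.4, 28 and 25.8% in controls and 87.7, 89.8 and 92.5% in knockdown cells, a difference of 50.6 ± 23.8 points (SD, n = 3 batches; adjusted p = 0.85, limma). The spanning transcripts held 7.59% of the RPKM of the gene in controls. Wdr83, a scaffold protein gene, held a 274 nt intron inside an internal exon at 27.5, 67.0 and 75.6% in controls and 81.4, 89.2 and 86.7% in knockdown cells. Its spanning and splicing transcript share all other introns, and the gap between groups was widest in batch 1. Cln3, a lysosomal membrane protein gene, held a 77 nt intron inside an internal exon at 2.50, 8.20 and 13.8% in controls and 27.4, 30.4 and 32.8% in knockdown cells. All knockdown values were above all controls (adjusted p = 0.85, limma). The main transcripts of Cln3 also differ by other introns, 2 only in the spanning and 3 only in the splicing one. Those of Rrbp1 differ by other introns as well.

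The other introns on this side were in Cdc42bpg, Rai1, Znrf1, Zdhhc20, Eogt, Phka1, Enpp4, Kdm6a and Xk. Some rested on a single library. Rai1 was at 100% in the knockdown library of batch 2 and at 1.21 to 2.56% in all 5 others. Eogt was at 75.3% in the knockdown library of batch 3, against 12.8 and 11.6% in the other knockdown libraries and at most 6.89% in controls. Enpp4 had values of 58.8, 66.7 and 78.0% in controls and 97.7, 84.2 and 94.4% in knockdown cells, in a gene whose spanning and splicing transcripts also differ by another intron. Of the 24 introns chosen for their difference, 11 lay in last exons, 6 in first exons, 6 in internal exons and 1 in exons of mixed place. In 8 of the 24 the main spanning and splicing transcripts differed by this intron alone.

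**Figure D4:**
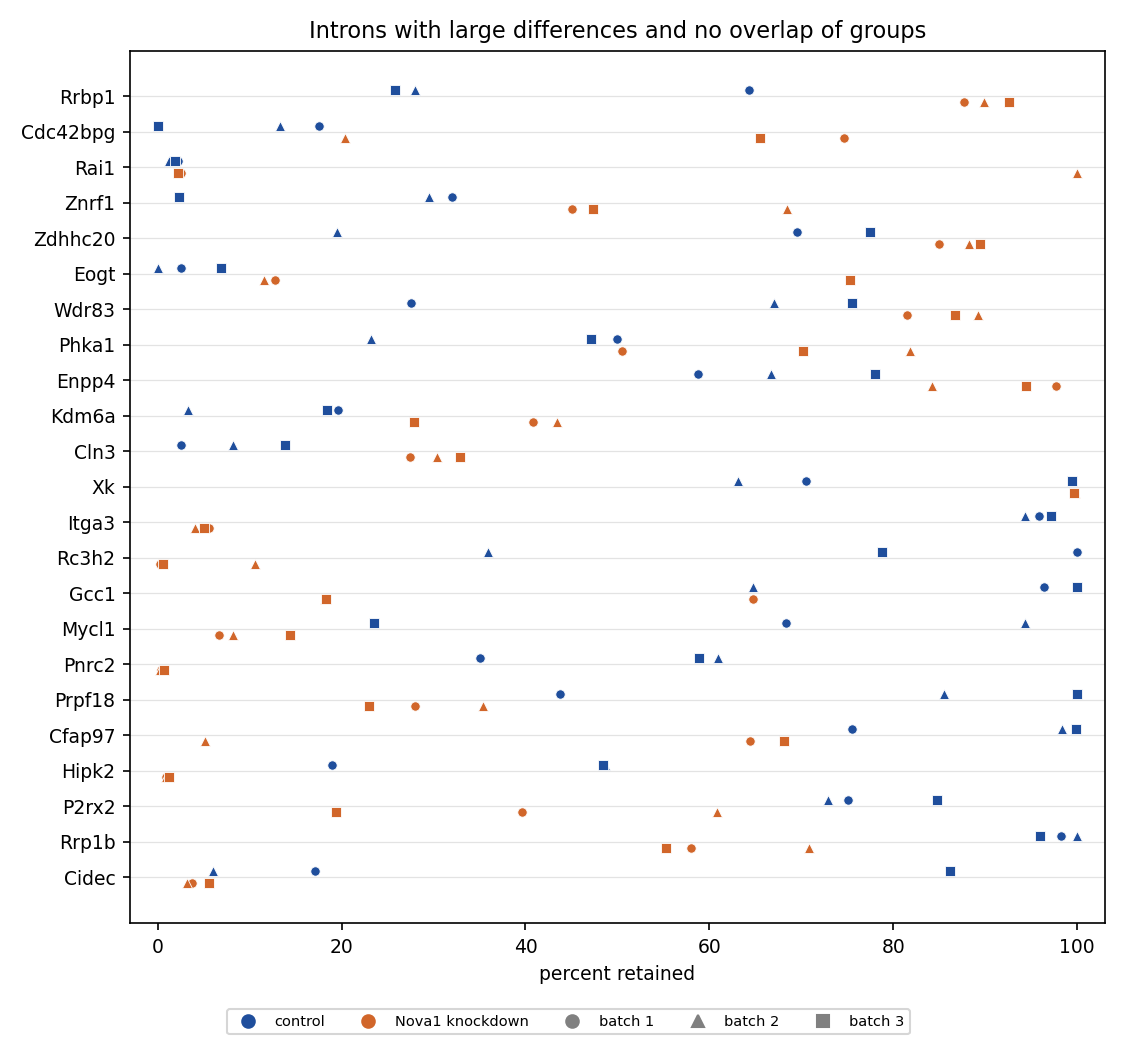
Percent retained (horizontal axis) in the 3 control and 3 knockdown libraries for 12 introns higher and 11 lower in the knockdown, among those with the largest mean difference and groups that do not overlap. None passed the adjusted threshold; Itga3 has the widest gap, and single libraries set Rai1, Eogt and Cidec apart.

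**Figure D5:**
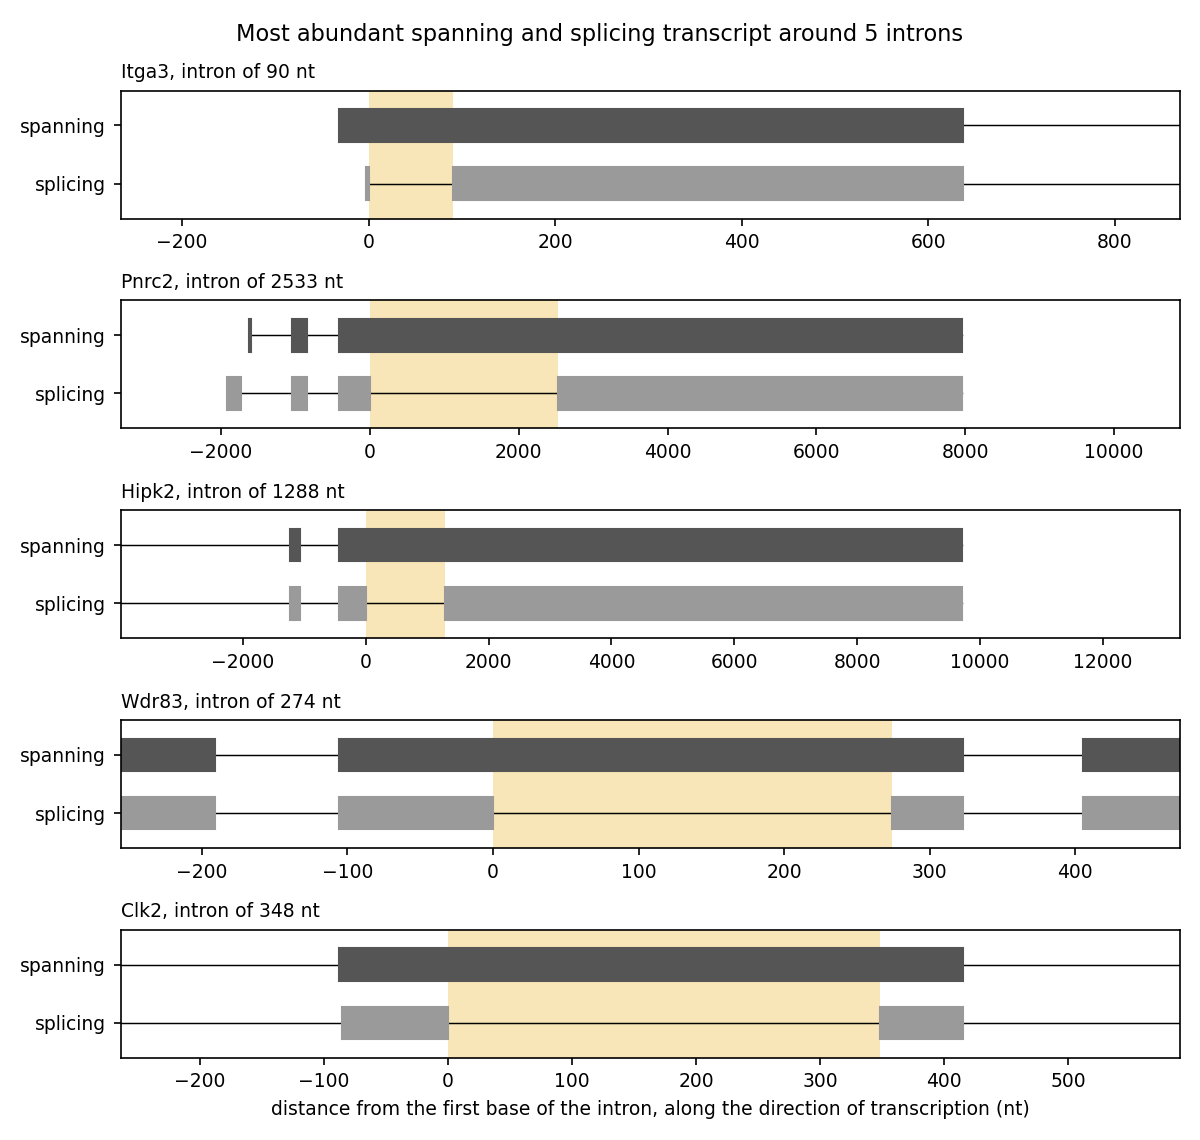
Main spanning and splicing transcripts around the introns of Itga3, Pnrc2, Hipk2, Wdr83 and Clk2, drawn to scale by distance in nt from the first base of the intron. In Hipk2 and Wdr83 the drawn transcripts differ by this intron, while in Itga3 and Pnrc2 they also differ elsewhere.

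Clk2, the kinase that phosphorylates SR proteins, was chosen after its values were seen. Its 348 nt intron inside an internal exon (chr2:207898282-207898629) was retained at 3.10, 30.3 and 0.98% in controls and 33.9, 80.8 and 15.7% in knockdown cells. Retention was higher in the knockdown of every batch, but the batch 2 control lay above the batch 3 knockdown, so the groups overlap (adjusted p = 0.85, limma). Among the RNA-processing lists, an unadjusted p under 0.05 was reached by 2 of 26 introns of the SR list, 0 of 26 of the hnRNP list, 2 of 15 of the spliceosome list, 1 of 2 of the decay list (Pnrc2) and 0 of 9 of the export list, beside 5.3% of all tested introns.

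Genes known as Nova targets in brain were read out from their own list. Of 46 such genes over the minimum, 8 (17.4%) held a tested intron, 1 each, and 2 of these introns were higher and 6 lower in the knockdown, with a median change of -8.33 points beside 0.09 over all introns. None was called, and the list's median retention was lower in the knockdown of batches 1 and 2 (55.0 and 27.5%, 57.9 and 29.8% in control and knockdown) but not of batch 3 (51.3 and 54.3%). Among the 6 lower introns, those of Numb (11 nt) and Epb4.1l2 (21 nt) are very short gaps. They had the largest falls in mean retention, from 27.9 to 11.7% and from 72.1 to 58.2%, and both are included in these medians. Ap2a1, a subunit of the clathrin adaptor, held an 87 nt intron at 0, 0.53 and 2.86% in controls and 5.23, 3.14 and 5.28% in knockdown cells, the 1 intron of this list with all knockdown values above the controls. Mtap4, a microtubule-associated protein gene, kept a 95 nt intron in its first exon at 100% in all 3 controls and at 96.1, 95.7 and 91.6% in knockdown cells (adjusted p = 0.85, limma). Ptprf, a receptor phosphatase gene, was at 99% or above in all 6 libraries. Neo1, a receptor of netrins, differed in direction between batches, with 56.1, 77.9 and 35% in controls and 10.2, 23.0 and 99.9% in knockdown cells. Gria2, a glutamate receptor subunit, held a 392 nt intron in its last exon at 53.9, 51.9 and 61.9% in controls and 37.5, 36.6 and 60.3% in knockdown cells, lower in all 3 batches but by little in batch 3.

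The amount of RNA of the genes that hold these introns was tested separately. Of the 1179 genes, 28 (2.37%) passed the adjusted threshold, 12 higher and 16 lower in the knockdown (limma voom with batch as a block). Among all 15983 genes tested 274 (1.71%) passed, of which 82 (0.513%) were higher and 192 (1.2%) lower. The call rests on the fit: 0 of the 1179 passed without the block, 0 when any 1 of batches 1, 2 and 3 was left out, 0 on log2 RPKM, and 11 with scaling by library totals alone. The largest fall was in Slc35a2, the UDP-galactose transporter of the Golgi, with a log2 fold change of -0.94 ± 0.06 (SE, n = 3 batches; adjusted p = 0.036) from 40.6 ± 6.24 to 21.2 ± 4.5 CPM. Its intron was at 60.5, 48.5 and 51.6% in controls and 48.2, 47.2 and 58.0% in knockdown cells, which overlap.

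Hmgn3, a nucleosome-binding protein of islets, fell from 154 ± 11.2 to 108 ± 8.87 CPM and Derl1, part of the channel that exports misfolded proteins from the endoplasmic reticulum, from 155 ± 35.6 to 113 ± 17.9 CPM. Polr3c, Otud6b, Fam92a1 and P2rx2 fell by 0.77, 0.68, 0.64 and 0.63 on the log2 scale. Amt, of the glycine cleavage system, rose by 0.79 and Ulk2, an autophagy kinase gene, by 0.52, followed by Faxc with 0.48 and Kif3c, a kinesin gene, with 0.43. For 3 of these 28 genes the intron is also among those 24. Cln3 fell by 0.42 on the log2 scale (22.3 ± 5.91 to 16.7 ± 3.76 CPM) beside a higher retention value, Zdhhc20 fell by 0.55 beside a higher one, and P2rx2 fell beside a lower one. The retention values of these 3 did not pass the threshold.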

How the data were processed

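Polyadenylated RNA of 3 control and 3 knockdown libraries was sequenced on a HiSeq instrument. Reads were aligned with TopHat to Rnor_5.0, per the submitters' processing notes. For each transcript of 1 assembly the authors deposited estimated read counts, a length and RPKM, held as text attributes. The read-assignment program and whether it used strand are not stated in the labels or headers, so overlapping and antisense genes cannot be told apart.

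Introns were taken between exons of the deposited assembly (60887 transcripts, 24579 gene models), with coordinates as in the files. Of 5824 models named only by an identifier, 517 took a symbol from a RefSeq table on GRCr8, used for names only. Retention was computed from the deposited RPKM. It was tested with limma 3.58.1 (R 4.3.3) on log2((spanning + 0.1)/(splicing + 0.1)) with batch as a block, with Benjamini-Hochberg adjustment over 1680 introns and a threshold of 0.05. Fold changes on this scale depend on the pseudocount of 0.1 RPKM. Genes were tested with limma voom on the deposited estimated read counts after scaling by trimmed mean of M values, on the 15983 genes that had the equivalent of 10 reads at median depth in 3 or more libraries and a total of at least 15. CPM values use the same scaling. A count model was not used, because reads are fractional and held as text. Scripts were tested on simulated data.

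Batch numbers come from the titles and pair the libraries. Control and knockdown of batches 1, 2 and 3 deviated from their group means together, with correlations of 0.58, 0.87 and 0.78 in gene level and 0.11, 0.22 and 0.14 in retention.

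Introns were named by rule: those past the threshold, filled up to 12 higher and 12 lower with the largest mean change among introns with the same direction in 3 batches and no overlap of groups; the 10 most abundant retained at 10 to 90%; and up to 3 per gene list by RPKM among those retained at 5% or more over all libraries. The rule allows 1 intron per gene. Other introns named (those of Clk2, Luc7l, Nxf1, Srsf7, Hnrpdl, Pdx1, Nkx2-2, Gria2, Ap2a1, Numb and Epb4.1l2, and a second one each of Itga3, Srsf2, Srsf7 and Scn3b) were chosen after their values were seen. The members and lists were chosen with earlier results of these data known. Alternatives changed the block, the batches, the pseudocount, the filter, the transcripts counted, the variance prior and the scaling. An intron length of at least 50 nt was added after seeing the data. Intron sequences were not analysed here. Some introns that the naming rule takes are not reported here.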

Additional observations from a re-analysis of the deposited data

How the results depend on the processing

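The count of introns called was 0 in most alternatives, 2 with no replicate block (Itga3 and Pnrc2), 1 with a pseudocount of 1 RPKM (Itga3), 1 with a filter of 5 RPKM (Itga3, 787 introns tested) and 0 to 0 when each batch was left out. The difference in median retention between knockdown and control, 0.13 points, became -1.62 points with clean pairs only (transcripts whose introns differ by this one alone, 533 introns) and 1.28 points without the RPKM filter (1997 introns), and ran from -0.44 to 0.54 without each batch. It was also below 0 with estimated reads (-0.42) and with introns of at least 50 nt (-0.14), so its direction is not settled. The 28 genes called became 0 with no replicate block, 0 to 0 without each batch, 11 with library totals alone, and 0 with limma-trend on log2(RPKM + 1) or log2(RPKM + 0.1). The log2 fold change of Nova1 was -1.12 with no replicate block (adjusted p = 1.00), -1.25 to -0.98 without each batch (adjusted p 0.071 to 0.14), -0.54 with limma-trend on log2(RPKM + 1) (0.33) and -0.73 on log2(RPKM + 0.1) (0.33). No called value changed direction. The causes were not tested, apart from the fewer libraries in the fits that leave out a batch. Without the block the pairing of libraries is not used. Retention rests on how reads were divided among transcripts of shared sequence, and this error is not in the files.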

Other observations

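Of the 148 tested introns under 50 nt, 8.78% had an unadjusted p under 0.05 (limma), beside 5.30% of all tested introns. Genes with a tested intron had a median of 5 assembled transcripts, against 2 for the other genes over the minimum, at a similar median level (8.51 and 9.88 RPKM in controls). Snrnp70, encoding a protein of the U1 particle, was at 39.5, 99.3 and 23.3% in controls and 76.4, 97.3 and 73.8% in knockdown cells for a 2314 nt intron inside an internal exon. Luc7l, encoding another U1-associated protein, was at 3.91, 55.9 and 2.92% in controls and 6.80, 28.4 and 2.37% in knockdown cells. The batch 2 libraries were the 2 highest in both genes, and the knockdown libraries 1 and 3 of Snrnp70 lay well above their controls (adjusted p = 0.86, limma).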
